A study of Mus musculus with 24 samples.

Results

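Cdkn1a, the gene of the cell cycle inhibitor p21, and 8 other target genes of the tumour suppressor p53 were followed over the day in back skin of mice that ate at different times of day. The 9 genes were Cdkn1a, Gadd45a, Ccng1, Mdm2, Phlda3, Trp53inp1, Bax, Bbc3 and Aen. They were taken by gene symbol from 29758 symbols in the deposited count table, where none of the 9 shared its symbol with another row. All 9 passed the filter on low counts, among 15719 genes by exon reads and 14611 by intron reads. The 24 RNA sequencing libraries fell into 3 groups of 8, each group with 1 library at ZT0, ZT4 and so on to ZT28 (ZT is hours since lights on). Food was available from ZT12 to ZT16 in EN, from ZT5 to ZT9 in MD and from ZT0 to ZT4 in ED. All animals were wild-type male C57BL/6NCrl mice, a common inbred laboratory strain, of about 8 weeks in telogen, when hair follicles rest, after 18 to 21 days of restricted feeding under 12 h of light and 12 h of darkness. Each library was made from RNA of whole back skin pooled from 2 to 4 mice, so that differences between animals within a pool are averaged. The title of the series concerns feeding time, the skin clock and sensitivity to UVB light, and no library carried a label of irradiation.

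p53 is a transcription factor that DNA damage and other stresses stabilise. Its targets include Cdkn1a and Gadd45a, which halt the cell cycle, Mdm2, whose product marks p53 for degradation, and Ccng1, which encodes cyclin G1 and acts back on p53 through Mdm2. Phlda3 encodes a repressor of Akt survival signalling, Trp53inp1 a cofactor of p53 in stress responses, Bax and Bbc3 (PUMA) proteins that start apoptosis at mitochondria, and Aen a nuclease of apoptotic cells. In skin, p53 and p21 are known for holding keratinocytes in arrest after sunlight damage, and Cdkn1a is also controlled by factors other than p53, including clock proteins in mouse liver.

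Exon counts totalled 13222667 to 26316851 per library. Keratinocyte, fibroblast and skeletal muscle markers were present in every library, and the 6 muscle markers summed to 6630 to 20400 CPM (read counts relative to the TMM-scaled library size). Markers of growing (anagen) hair summed to 2810 CPM in the EN library of ZT0 and 1010 CPM in the ED library of ZT24, against medians of 22.4 CPM in EN and 24.7 CPM in ED, so results are also given below without these libraries where a call changed. Between the first and second day, libraries of 1 group and time of day had a median difference of 0.187 (log2) over all genes tested.

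The promoters that RefSeq gives for these genes were searched first, because a shared p53 motif is what the 9 genes are known for. RefSeq (GRCm38.p6) had 12 promoter windows for 8 of the genes, and the 250 bases before the RefSeq start were read in each. This start can differ from the start of the gene in GENCODE. Some windows of Bbc3 and Aen overlap each other. The 10-base p53 half-site motif was searched without mismatch, and its consensus reads the same on both strands. A full p53 site is a pair of such half-sites, so a single one is only a part. The half-site lay in 6 of the 12 windows (6 of the 8 genes), against 7.13% of 32851 RefSeq windows of the same length. Cdkn1a held half-sites at separate places, and the other 5 genes held a single one each. They are printed 5′ to 3′ on the strand of the gene, with the motif in capitals. The Cdkn1a window printed is the whole 250 bases before the start at chr17:29090729-29090978 (+ strand), with the motifs at bases 73 to 64 and 51 to 42 before the start. The 10 bases right after the second of these differ from the consensus at their first base only, and so stayed in small letters. The others are 40-base stretches at chr6:67037423-67037462 (Gadd45a, - strand), chr11:40755447-40755486 (Ccng1, - strand), chr10:117710920-117710959 (Mdm2, - strand), chr7:45467075-45467114 (Bax, - strand) and chr7:78895922-78895961 (Aen, + strand).
Cdkn1a: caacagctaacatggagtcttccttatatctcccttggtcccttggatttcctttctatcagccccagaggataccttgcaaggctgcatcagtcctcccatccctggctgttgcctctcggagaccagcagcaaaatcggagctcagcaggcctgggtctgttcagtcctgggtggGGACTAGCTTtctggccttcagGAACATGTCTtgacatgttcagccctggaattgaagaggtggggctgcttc
Gadd45a: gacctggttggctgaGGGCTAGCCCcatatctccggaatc
Ccng1: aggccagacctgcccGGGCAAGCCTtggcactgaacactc
Mdm2: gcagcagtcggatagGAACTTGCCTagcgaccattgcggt
Bax: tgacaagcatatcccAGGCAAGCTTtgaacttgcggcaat
Aen: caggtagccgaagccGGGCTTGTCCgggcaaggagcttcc

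In the GENCODE M21 annotation of GRCm38 the genes lie at chr17:29090976-29100727 (Cdkn1a, + strand), chr6:67035096-67037457 (Gadd45a, - strand), chr11:40748552-40755311 (Ccng1, - strand), chr10:117688875-117710758 (Mdm2, - strand) and chr1:135766119-135769136 (Phlda3, + strand). Trp53inp1 lies at chr4:11156431-11174379 (+ strand), and chromosome 7 holds Bax at 45461697-45466898 (- strand), Bbc3 at 16308393-16318205 (+ strand) and Aen at 78895854-78911209 (+ strand). By these positions the printed half-sites of Gadd45a and Aen lie inside the gene, after its GENCODE start. Values are sums over the exons or the introns of each gene.

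The windows of Phlda3 and Bbc3 held no p53 half-site. Nor did another window of Cdkn1a (chr17:29093519-29093768) and another of Aen (chr7:78895677-78895926), which are not printed. Other motifs were read on both strands. GGGCGG (the GC box) lay in 9 of the 12 windows (7 of the 8 genes, all but Ccng1) and in 32.7% of all windows. In Cdkn1a it lay only in the window that is not printed. CACGTG (the E-box that clock proteins bind) lay in 3 of the 12 windows, those of Bbc3, Bax and Aen, and in 6.02% of all windows. TGTTTAC (a forkhead motif) lay in 2 of the 12 windows, those of Bbc3 and Mdm2, and in 3.17% of all windows, and TGACG, which is part of the cAMP motif TGACGTCA, in 1 of the 12 windows, that of Bbc3, and in 17.8% of all windows. TGACGTCA, TTATGTAA and AGGTCA lay in 0 of the 12 windows, against 1.55%, 0.819% and 14% of all windows.

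Per transcript length, Ccng1 was the most abundant of the 9 genes and Bbc3 the least. The deposited cqn RPKM values (read density per transcript length and library size, adjusted by the authors) had a median over the 24 libraries of 97.2 for Ccng1, 47.6 for Phlda3, 39.0 for Cdkn1a, 35.8 for Trp53inp1, 16.4 for Mdm2, 10.9 for Aen, 8.48 for Bax, 4.04 for Gadd45a and 3.68 for Bbc3. The ranges of neighbours in this order overlapped at every step but one. Trp53inp1, at 20.2 RPKM or above, stayed over Mdm2, at 17.9 RPKM or below. The genes also differed in how steady they were. Mdm2 kept between 37.7 and 47.2 exon CPM in all 24 libraries, whereas Trp53inp1 spanned 76.6 to 295 CPM.

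Cdkn1a had a daily course in EN and MD whose fitted peaks lay at different times of day, while the highest library was that of ZT16 in both. In EN it had 80.2, 60.0, 55.3, 69.0, 95.7, 93.9, 85.6 and 78.2 exon CPM from ZT0 to ZT28. In MD it had 57.2, 64.7, 99.4, 116, 135, 76.5, 68.9 and 71.3 CPM at the same times. In ED it had 92.6, 84.8, 73.0, 69.7, 67.7, 68.8, 75.9 and 83.2 CPM. The high libraries were therefore those of ZT16 and ZT20 in EN, of ZT8 to ZT16 in MD and of ZT0, ZT4 and ZT28 in ED, while the ranges of the 3 groups overlapped.

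**Figure D1:**
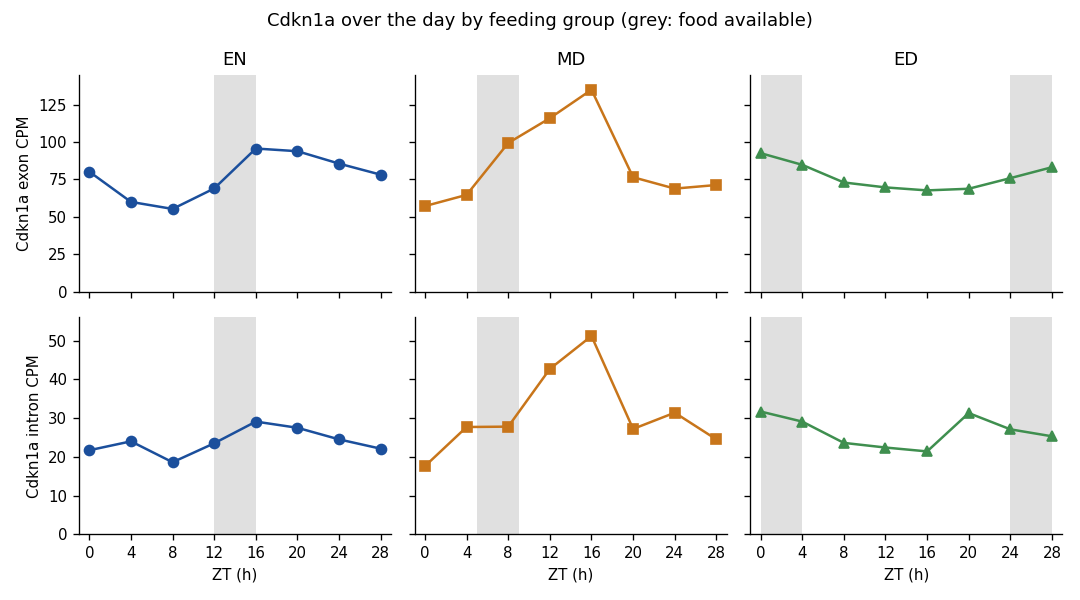
Cdkn1a in the 24 libraries, with ZT in hours on the x axis and CPM on the y axis (exon reads above, intron reads below), 1 point per library and grey bars for the hours with food. The exon level was highest at ZT16 in EN (95.7 CPM), at ZT16 in MD (135 CPM) and at ZT0 in ED (92.6 CPM).

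A cosine of 24 h fitted to each group gave Cdkn1a an amplitude (mean to peak, log2) of 0.37 ± 0.07 (SE) with a peak at ZT19.5 ± 0.709 h in EN (adjusted p = 0.0334). In MD the amplitude was 0.55 ± 0.07 with a peak at ZT13.2 ± 0.514 h (adjusted p = 0.00025). In ED it was 0.18 ± 0.07 with a fitted peak at ZT2.66 ± 1.57 h (adjusted p = 0.319). By edgeR over all 3 groups, Cdkn1a was the 1 member of 9 called rhythmic in EN and in MD, where 1.06% of all genes were called in EN and 0.942% in MD. Without each of the 7 EN libraries from ZT0 to ZT24 in turn the EN call was lost, with an adjusted p of up to 0.222, and without the EN ZT0 and ED ZT24 libraries together it was 0.0565. In EN, limma on log2 RPKM called Phlda3 as well, and the fit of each group alone called Trp53inp1 as well. The MD call held without any single library, with amplitudes of 0.47 to 0.63.

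The course of Cdkn1a differed between EN and MD (adjusted p = 0.00408, where 0.35% of all genes were called) and between MD and ED (adjusted p = 0.000864, also with 0.35% of all genes called). Both calls held when each library was left out in turn. Between EN and ED edgeR called 0 of 9 at an adjusted p under 0.05, where 0.401% of all genes were called and 5 of 9 had an unadjusted p under 0.05, as 11.6% of all genes did. The lowest values were 0.0687 for Phlda3 and 0.099 for Cdkn1a. DESeq2 called both, limma on log2 RPKM and edgeR with no filter on low counts called Phlda3, and so did edgeR without the MD library of ZT0 or of ZT24. By clock time the EN peak of Cdkn1a came 6.3 ± 0.876 h after the MD peak. Counted from the opening of food, the peaks lay at 7.5 h in EN and 8.2 h in MD, a difference of -0.70 ± 0.876 h, and the fitted ED peak at 2.66 h. The ED amplitude was lower than the MD amplitude by 0.37 ± 0.10 (log2). The errors of these differences combine the standard errors of both fits.

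With 1 rhythm shared by the 3 groups, Cdkn1a and Phlda3 were called in food time, though Cdkn1a also departed from that shared rhythm. A shared rhythm in ZT was called for 0 of the 9 genes (edgeR, 0.668% of all genes), and 0 with DESeq2, with 3 of 9 at an unadjusted p under 0.05, as 14.7% of all genes were. A shared rhythm in hours since food opened was called for 2 of 9, Cdkn1a and Phlda3, where 1.29% of all genes were called. Cdkn1a had a shared amplitude of 0.33 ± 0.06 with a peak 7.23 ± 0.719 h after opening (adjusted p = 0.0109). Phlda3 had a shared amplitude of 0.29 ± 0.05 with a peak 5.10 ± 0.692 h after opening (adjusted p = 0.01). Both calls held without any single library, and without the second day that of Phlda3 held while Cdkn1a had an adjusted p of 0.0633.

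The groups departed from a shared ZT rhythm for Cdkn1a (adjusted p = 0.000424), the 1 member of 9 called, where 0.999% of all genes were called. Cdkn1a also departed from the shared food time rhythm (adjusted p = 0.031), again the 1 member of 9, where 1.32% of all genes were called. That second call was lost without each of 7 libraries in turn (MD ZT4 and ZT16, ED ZT0, ZT4, ZT8 and ZT12, and EN ZT12), with an adjusted p of up to 0.137. For Phlda3, edgeR gave an adjusted p of 0.0804 against ZT and 0.98 against food time. The departure of Phlda3 from ZT was called by DESeq2, by limma on log2 RPKM, by edgeR with no filter on low counts, and by edgeR without the MD library of ZT0 or of ZT24. Its fitted peaks lay 4.6 ± 1.4 h after opening in EN, 5.5 ± 1.5 h in MD and 5.25 ± 1.17 h in ED, and edgeR called its rhythm in no group (adjusted p of 0.31, 0.336 and 0.171).

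**Figure D2:**
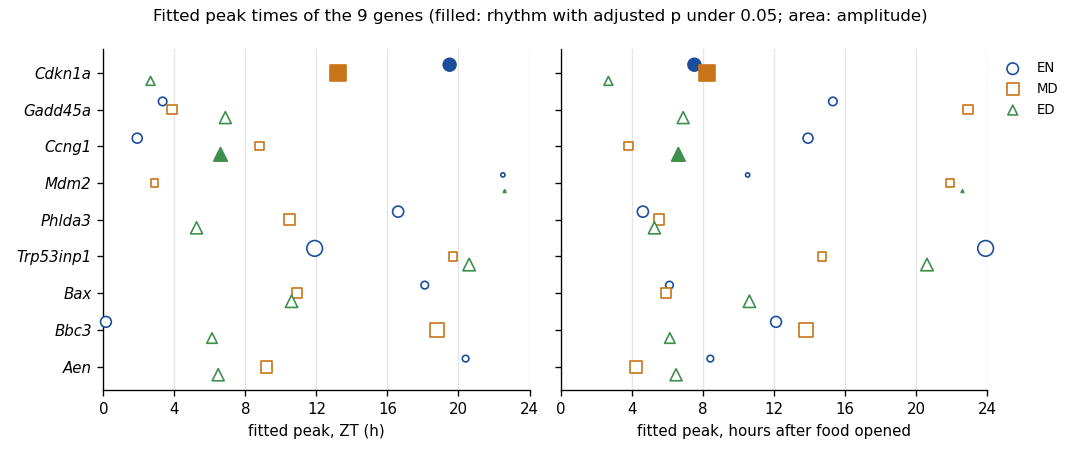
Fitted peak times of the 9 genes in EN (circles), MD (squares) and ED (triangles), in ZT on the left and in hours after food opened on the right, with symbol area for amplitude and filled symbols for rhythms called at an adjusted p under 0.05. The Phlda3 peaks lie at 4.6, 5.5 and 5.25 h after food opened in EN, MD and ED.

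The peak of the clock gene Nr1d1 also lay at different times in the feeding groups. Nr1d1 encodes REV-ERB alpha, a clock repressor that represses Cdkn1a in mouse liver, and it peaked at ZT5.96 ± 0.238 h in EN, ZT1.44 ± 0.343 h in MD and ZT9.38 ± 0.339 h in ED. The Cdkn1a peak came 13.5 ± 0.748 h after that of Nr1d1 in EN and 11.8 ± 0.618 h after it in MD. In ED, where the Cdkn1a rhythm was not called, its fitted peak came 17.3 ± 1.61 h after that of Nr1d1. A part of Nr1d1 in the course of Cdkn1a in these libraries was not tested. Among the listed regulators of Cdkn1a other than p53, Nr1d1, Nr1d2 and Bhlhe40 were rhythmic in EN and in MD, and Nr1d1 and Nr1d2 in ED. None of the 14 tested genes of the p53 family and its regulators was called rhythmic in EN, MD or ED by edgeR, with 1, 3 and 3 of them at an unadjusted p under 0.05, as were 1704, 2463 and 2339 of the 15719 genes tested.

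Ccng1 was the 1 member of 9 called rhythmic in ED, where 0.719% of all genes were called. In ED it had 201, 269, 240.0, 241, 173, 174, 184 and 335 exon CPM from ZT0 to ZT28. The high library was that of ZT28 and the low ones those of ZT16 to ZT24. The amplitude was 0.41 ± 0.09 (log2) with a peak at ZT6.6 ± 0.79 h (adjusted p = 0.0435), and the call was lost without each of 17 of the 24 libraries in turn (up to adjusted p = 0.156) and without the EN ZT0 and ED ZT24 libraries together (0.0803). The 17 were all 8 ED libraries but that of ZT8, the MD libraries of ZT4, ZT8, ZT20, ZT24 and ZT28 and the EN libraries of ZT0, ZT16, ZT20, ZT24 and ZT28.

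Skeletal muscle markers moved with Ccng1. In ED their summed level was 12000, 12900, 9670, 12800, 9010, 6630, 8970 and 19600 CPM from ZT0 to ZT28, with the highest sum in the library where Ccng1 was highest. Over the 24 libraries, after subtraction of group means, Ccng1 and the muscle sum had a Pearson r of 0.898, a description across libraries of different times. None of the 6 muscle markers was at 0 in every library or called rhythmic in ED by edgeR, and 2 of them were at an unadjusted p under 0.05. The part of muscle in the Ccng1 result was not tested, and in whole skin more muscle cells and more RNA per cell cannot be told apart.

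**Figure D3:**
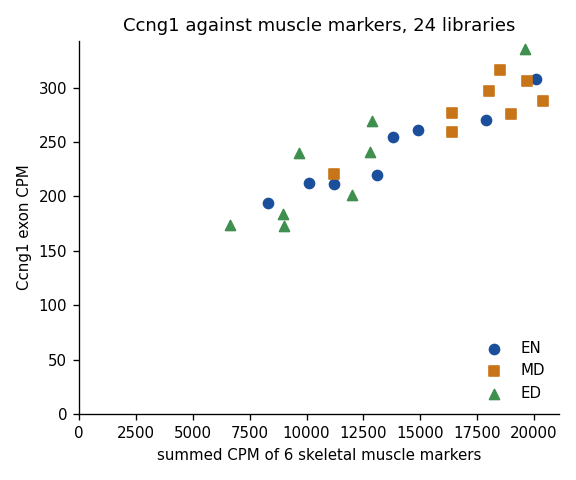
Exon CPM of Ccng1 (y axis) against the summed CPM of 6 skeletal muscle markers (x axis) in the 24 libraries of EN, MD and ED, 1 point per library. The ED library of ZT28, with 19600 CPM of muscle markers, had the highest Ccng1 level at 335 CPM.

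The other 7 members were not called rhythmic in any group by edgeR over all 3 groups, and their nearest values were an adjusted p of 0.0826 for Bax in ED and 0.126 for Bbc3 in MD. Bax had a fitted ED amplitude of 0.34 ± 0.07 (log2) with a peak at ZT10.6 ± 0.789 h, and 12.0, 15.7, 17.5, 20.3, 15.3, 13.0, 12.3 and 14.5 CPM from ZT0 to ZT28. Its ED values were highest at ZT12. DESeq2 called Bax in ED in addition to Ccng1. Bbc3 had a fitted MD amplitude of 0.42 ± 0.10 with a peak at ZT18.8 ± 0.856 h. Mdm2 stood at the other end, with amplitudes of 0.04 ± 0.05 in EN, 0.12 ± 0.05 in MD and 0.02 ± 0.05 in ED.

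Members differed most often between the early and the late hours after food opened. The 7 libraries of 3 to 8 h after opening were compared with the 9 libraries of 19 to 24 h, in a model with feeding group and time of day, where the opening itself counts as 24 h. Of the 9 genes, 4 were higher in the early libraries (Cdkn1a, Ccng1, Phlda3 and Aen) and 1 was lower (Trp53inp1), 5 in all, where 4.85% of all genes were called, 2.39% higher and 2.46% lower. The median difference of the 9 genes was 0.28 (log2), against 0.00 over all genes tested. The members were chosen with earlier results of these data known, and the part of that choice in these values was not tested. The values of the early and late libraries overlapped for each of the 9 genes.

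Aen, the apoptotic nuclease, had the lowest adjusted p of these. It had 26.3 to 39.0 CPM with a median of 31.1 CPM in the 3 to 8 h libraries, against 18.8 to 28.5 CPM with a median of 24.7 CPM in the 19 to 24 h libraries. Of the 7 early libraries, 5 lay above every late library. The difference was 0.43 ± 0.10 (log2, adjusted p = 0.0114), and it held without any single library, without the second day and without the term for time of day. Within single groups, early minus late libraries gave 0.14 in EN, 0.51 in MD and 0.50 in ED. The values did not overlap in EN (2 against 2 libraries), MD (2 against 4) or ED (3 against 3). Sets this small often do not overlap, and the share of all genes without overlap was not computed. The macrophage markers (4 of 5 in the table) went the other way, at 241 to 516 CPM in the early libraries and 323 to 554 CPM in the late ones, with a Pearson r of -0.714 with Aen over 24 libraries, and 1 of the 4 was called lower. Basal keratinocyte markers summed to a median of 6730 CPM in the early libraries and 5810 CPM in the late ones (r = 0.581 with Aen), with 0 of 4 called by edgeR and 1 of 4 at an unadjusted p under 0.05. Muscle markers had an r of 0.535 with Aen and summed to a median of 12900 CPM in the early libraries and 12000 CPM in the late ones. The part of these markers in the result was not tested.

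Phlda3 had 63.9 to 90.3 CPM with a median of 75.2 CPM in the early libraries, against 36.7 to 70.4 CPM with a median of 59.6 CPM in the late ones. The difference was 0.40 ± 0.13 (log2, adjusted p = 0.0375). As plain means without the term for time of day, it lay between 0.36 and 0.41 in EN, MD and ED alone, of like size in each group. Phlda3 ran against the macrophage markers (r = -0.589 over 24 libraries) and with the basal keratinocyte markers (0.421), whose part in the result was not tested. The call was lost without each of 10 libraries in turn (MD ZT4 and ZT8, ED ZT16, ZT20 and ZT28, EN ZT8, ZT12, ZT16, ZT20 and ZT24), with an adjusted p of up to 0.127, and without the second day (0.0766), while the difference stayed between 0.33 and 0.47.

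Cdkn1a had 73.0 to 116 CPM with a median of 93.9 CPM in the early libraries, against 55.3 to 92.6 CPM with a median of 68.9 CPM in the late ones. The difference was 0.50 ± 0.15 (log2, adjusted p = 0.0342). As plain means without the term for time of day, early minus late libraries gave 0.62 in EN and 0.72 in MD but 0.03 in ED. In ED the library taken as food opened (ZT0) was the highest of the group. The values did not overlap in EN (2 against 2 libraries) or MD (2 against 4), which are small sets. The call was lost without each of 9 libraries in turn (MD ZT4, ZT8 and ZT12, ED ZT20 and ZT28, EN ZT8, ZT12, ZT20 and ZT24), with an adjusted p of up to 0.117, without the second day (0.113) and without the term for time of day (0.0573).

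Ccng1 had 211 to 335 CPM with a median of 269 CPM in the early libraries, against 174 to 306 CPM with a median of 220.0 CPM in the late ones, a difference of 0.31 ± 0.08 (log2, adjusted p = 0.0316). As plain means without the term for time of day, early minus late libraries gave 0.03 in EN, 0.12 in MD and 0.58 in ED. The call was lost without each of 8 libraries in turn (MD ZT4 and ZT8, ED ZT20 and ZT28, EN ZT8, ZT16, ZT20 and ZT24), up to an adjusted p of 0.128, without the EN ZT0 and ED ZT24 libraries (0.056), without the second day (0.113) and without the term for time of day (0.162). The muscle markers had a median difference of 0.40 here, with 0 of 6 called and 4 of 6 at an unadjusted p under 0.05 in edgeR.

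Trp53inp1, the p53 cofactor, was the member that was lower soon after food. It had 76.6 to 191 CPM with a median of 98.8 CPM in the early libraries, against 119 to 262 CPM with a median of 181 CPM in the late ones, a difference of -0.71 ± 0.22 (log2, adjusted p = 0.0316). Early minus late libraries gave -0.51 in EN, -0.73 in MD and -0.61 in ED, all in the same direction and all with overlap. The call was lost without each of 10 libraries in turn (MD ZT4, ZT8 and ZT12, ED ZT20 and ZT28, EN ZT8, ZT12, ZT16, ZT20 and ZT24), up to an adjusted p of 0.096, and without the term for time of day (0.173). Trp53inp1 ran against the basal keratinocyte markers (r = -0.593 over 24 libraries) and with the macrophage markers (0.547), whose part in the result was not tested. The gene was uneven between pools. In MD it had 249, 262, 76.6, 191, 295, 111, 130.0 and 190.0 CPM from ZT0 to ZT28, so that the pools of ZT0 and ZT24 differed by 0.94 (log2), and its median difference between such repeats, 0.50, exceeded that of 92.1% of all genes.

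The remaining 4 members were not called early against late. Bax was higher by 0.25 ± 0.09 (log2, adjusted p = 0.138). Its early and late libraries did not overlap within EN (2 against 2), MD (2 against 4) or ED (3 against 3). These sets are too small for the lack of overlap to stand as a result. Bbc3 had a difference of 0.28 ± 0.15 (adjusted p = 0.282), Gadd45a of 0.06 ± 0.16 and Mdm2 of -0.005 ± 0.0485. Mdm2 had 39.8 to 46.1 CPM in the early libraries and 37.9 to 47.2 CPM in the late ones. The feedback gene of p53 had the lowest standard error of the 9 in this comparison.

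**Figure D4:**
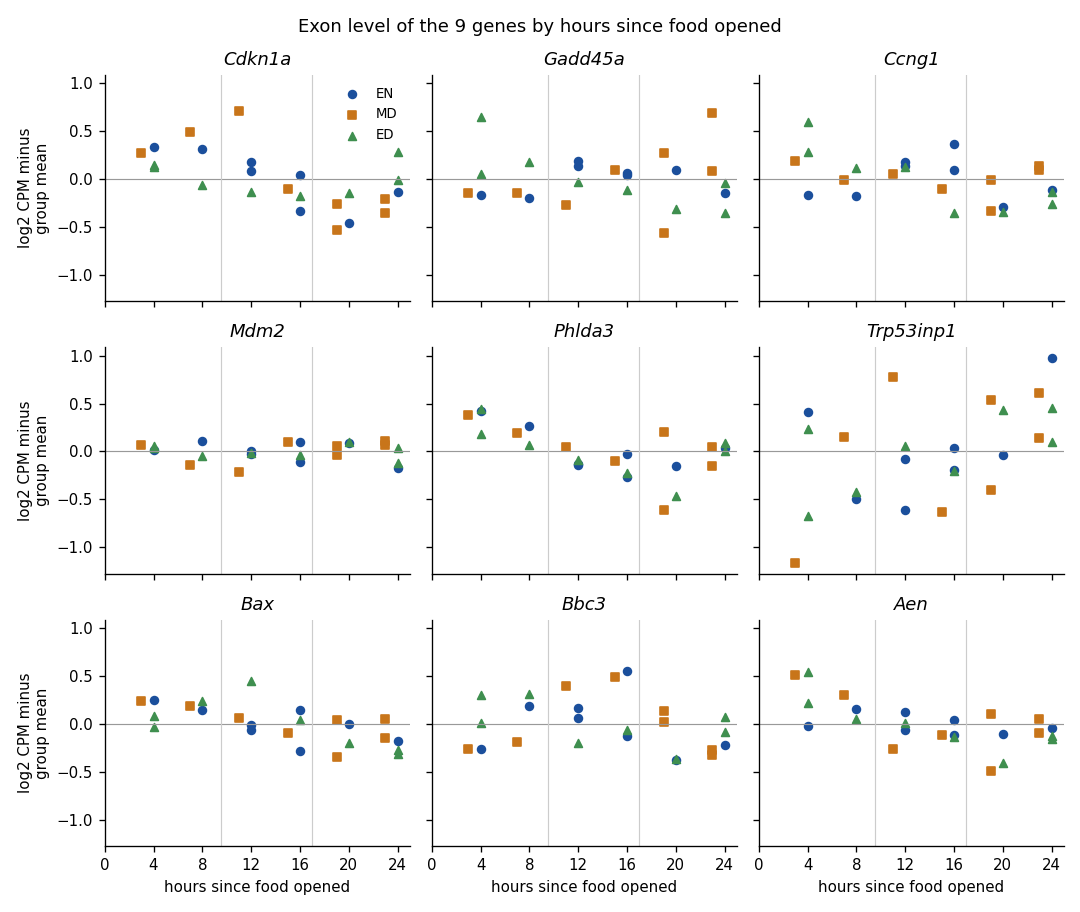
Exon level of the 9 genes (log2 CPM minus the mean of the feeding group, y axis) by hours since food opened (x axis) in the 24 libraries of EN, MD and ED, with thin lines between the 3 classes of hours. Aen, Phlda3 and Cdkn1a lie mostly above 0 at 3 to 8 h and Trp53inp1 has 4 of 7 points below it, while Mdm2 stays near 0 throughout.

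The mean of the 8 libraries of 11 to 16 h lay between those of the other classes for Cdkn1a, Ccng1, Phlda3, Aen, Trp53inp1 and Bax. No member was called for 3 to 8 h against 11 to 16 h (0.261% of all genes) or for 11 to 16 h against 19 to 24 h (0.719% of all genes) by edgeR. At an unadjusted p under 0.05, 3 of 9 differed in the first (9.33% of all genes) and 3 of 9 in the second (15.4% of all genes). The nearest values were 0.44 ± 0.13 (log2, adjusted p = 0.103) for Phlda3 in the first and -0.71 ± 0.21 (adjusted p = 0.0606) for Trp53inp1 in the second. DESeq2 called Phlda3 in the first, and Ccng1 and Trp53inp1 in the second. The MD library of ZT16, in the 11 to 16 h class, stood alone with the highest Cdkn1a (135 CPM) and the highest Trp53inp1 (295 CPM) of all 24 libraries.

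Intron reads, which come mostly from RNA not yet spliced, gave a second readout of the same libraries. Cdkn1a introns were rhythmic in MD with an amplitude of 0.50 ± 0.11 (log2) and a peak at ZT13.9 ± 0.92 h (adjusted p = 0.0389, 1 of 9 members, 0.842% of all genes). They had 17.6, 27.7, 27.8, 42.7, 51.2, 27.2, 31.4 and 24.5 CPM from ZT0 to ZT28 in MD, high at ZT12 and ZT16. This call was lost without each of 11 libraries in turn (MD ZT0, ZT12, ZT16 and ZT28, ED ZT8 and ZT12, EN ZT12, ZT16, ZT20, ZT24 and ZT28), up to an adjusted p of 0.248. No member was called by introns in EN (0.89% of all genes) or ED (0.452% of all genes), nor for a shared rhythm in ZT (0.37%) or food time (0.322%). At an unadjusted p under 0.05 these held 2 of 9 in EN (12.6% of all genes), 0 of 9 in ED (11.6%), 2 of 9 for the shared ZT rhythm (12.1%) and 1 of 9 for food time (12.8%).

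Early against late after food, Trp53inp1 introns were different by -0.998 ± 0.216 (log2, adjusted p = 0.00195), the 1 member of 9 called, where 8.51% of all genes were called, 3.65% as higher and 4.86% as lower. This held without any single library, but not without the term for time of day (adjusted p = 0.138). Aen introns differed by 0.44 ± 0.19 (adjusted p = 0.0922), Cdkn1a introns by 0.23 ± 0.19 (adjusted p = 0.448) and Phlda3 introns by 0.03 ± 0.15 (adjusted p = 0.937). Exon and intron levels ran together over the 24 libraries for Trp53inp1 (Pearson r = 0.948 after subtraction of group means), Cdkn1a (0.805) and Aen (0.782), less so for Phlda3 (0.496) and Ccng1 (0.381), and not for Gadd45a (-0.055), whose introns were at 0.0859 to 1.6 CPM.

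**Figure D5:**
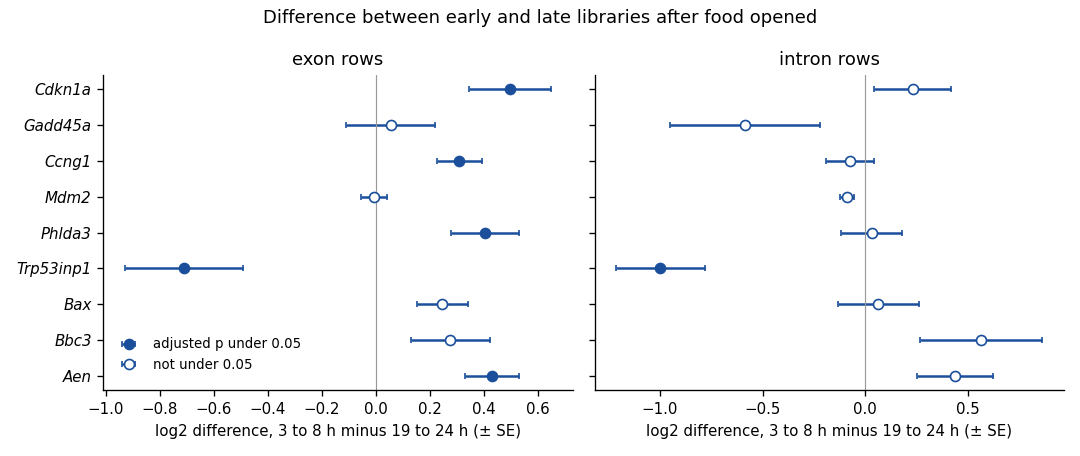
Difference between the libraries of 3 to 8 h and of 19 to 24 h after food opened (log2, x axis, error bars are SE) for the 9 genes by exon reads (left) and intron reads (right), with filled points for an adjusted p under 0.05. Trp53inp1 was lower by both readouts (-0.71 and -0.998), while the calls of Cdkn1a, Ccng1, Phlda3 and Aen were made by exon reads alone.

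Mean levels over the day differed for 3 members between MD and each of the other groups, a share near that of all genes. Between EN and MD, 3 of 9 were called, 1 higher and 2 lower, where 30.2% of all genes were called, 15.9% higher and 14.4% lower. Between MD and ED, 3 of 9 were called, 2 higher and 1 lower, where 23% of all genes were called, 11.2% higher and 11.8% lower, and both comparisons share the MD libraries. Between EN and ED, 0 of 9 and 0% of all genes were called by edgeR, with 0 of 9 and 6.11% at an unadjusted p under 0.05, and DESeq2 called 0 of the 9. The labels carry a code whose meaning they do not give. It runs from 1 to 3 in MD, 3 to 6 in ED and 6 to 8 in EN, and changes with sampling time within each group. MD and ED share code 3, and ED and EN share code 6. It ran from 1 to 8 in the libraries of 3 to 8 h and from 1 to 7 in those of 19 to 24 h. The code can be told apart from time and group only in part. Its part in the rhythm, food and mean level results was not tested. The share of intron reads had a median of 37.9% in EN, 41.3% in MD and 40.5% in ED, and its part in these differences was not tested.

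The same 3 genes were called in both. Bax averaged 16.5 ± 2.04 CPM in EN, 12.2 ± 1.58 CPM in MD and 15.1 ± 2.8 CPM in ED (SD, n = 8 each), and was higher in EN than in MD by 0.42 ± 0.07 (log2, adjusted p = 0.00051) and lower in MD than in ED by 0.30 (-0.30 ± 0.07, adjusted p = 0.00853). A protein-coding model, Gm45808, overlaps Bax on the same strand, so its counts may be split. By limma on log2 RPKM the adjusted p for Bax was 0.0645 for EN minus MD and 0.0717 for MD minus ED. Fibroblast markers (5 of 6) and adipocyte markers (5 of 5) were higher in EN than in MD, with median sums of 59500 CPM in EN, 36500 CPM in MD and 56200 CPM in ED for fibroblasts, and their part in the Bax difference was not tested. Cdkn1a averaged 77.2 ± 14.8 CPM in EN, 86.1 ± 27.7 CPM in MD and 77.0 ± 8.99 CPM in ED. It differed by -0.23 ± 0.07 for EN minus MD (adjusted p = 0.0182) and by 0.27 ± 0.07 for MD minus ED (adjusted p = 0.00923), and both calls were lost without the MD ZT16 library. The EN minus MD call was lost also without the EN ZT8 or EN ZT12 library (up to 0.125), and the MD minus ED value without MD ZT16 was 0.0744.

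Ccng1 averaged 242 ± 38.4 CPM in EN, 280.0 ± 30.0 CPM in MD and 227 ± 56.2 CPM in ED. It differed by -0.28 ± 0.09 for EN minus MD (adjusted p = 0.0181, lost without MD ZT16, EN ZT8 or EN ZT20, up to 0.0722, and at 0.0741 without the second day) and by 0.37 ± 0.09 for MD minus ED (adjusted p = 0.00396). The muscle markers were high in the same group, with a median sum of 13500 CPM in EN, 18200 CPM in MD and 10800 CPM in ED, and their part in the difference was not tested. Trp53inp1 averaged 130.0 ± 51.6 CPM in EN, 188 ± 77.7 CPM in MD and 137 ± 35.7 CPM in ED without a call (adjusted p = 0.109 for EN minus MD and 0.129 for MD minus ED).

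The other p53 targets of the list, 37 of 40 tested, held 3 of 37 called early against late after food, 1 higher and 2 lower, where 4.85% of all genes were called, with a median difference of -0.07 (log2). Sfn, the cell cycle brake 14-3-3 sigma of keratinocytes, was higher by 0.41 ± 0.09 (adjusted p = 0.00997). Ephx1, an epoxide hydrolase, differed by -0.40 ± 0.09 (adjusted p = 0.0117) and Ddit4, an inhibitor of mTORC1 signalling that stress and glucocorticoids also induce, by -0.63 ± 0.19 (adjusted p = 0.0257). Ephx1 was also the 1 of 37 rhythmic in EN, and 0 of 37 were rhythmic in MD or ED by edgeR, with 5 and 10 at an unadjusted p under 0.05, as were 2463 and 2339 of the 15719 genes tested. Neither the 14 genes of the p53 family and its regulators nor the 5 tested CDK inhibitors other than p21 held a gene called early against late by edgeR, with 2 and 0 at an unadjusted p under 0.05, as were 3458 of the 15719 genes tested. Among the regulators of Cdkn1a other than p53, Klf9, a glucocorticoid-induced brake on keratinocyte growth, differed by -0.70 ± 0.11 (adjusted p = 0.000557) and Nr1d2 by -1.24 ± 0.32 (adjusted p = 0.0101).

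By mean level, 12 of the 37 other targets were called for EN minus MD, 6 higher and 6 lower, and 10 of 37 for MD minus ED, 5 higher and 5 lower, shares again near those of all genes. The lowest adjusted p-values for EN minus MD were those of Dram1 (0.57 ± 0.09, adjusted p = 0.000105), an autophagy gene, and Rps27l (0.76 ± 0.15, adjusted p = 0.000319), a ribosomal protein paralogue. Eda2r, a death receptor relative, went the other way (-0.49 ± 0.10, adjusted p = 0.000585). For MD minus ED, Dram1 differed by -0.55 ± 0.09 (adjusted p = 0.000228) and Eda2r by 0.54 ± 0.10 (adjusted p = 0.000524).

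The 9 genes did not run as a single group. Over the 24 libraries, after subtraction of group means and as a description across libraries that share times, Pearson r was 0.804 between Phlda3 and Aen, 0.653 between Gadd45a and Ccng1, 0.650 between Ccng1 and Aen and 0.617 between Cdkn1a and Phlda3. Trp53inp1 ran against Aen (-0.626), and Mdm2 ran against Cdkn1a (-0.417). The gene most like Cdkn1a among all tested was BC046331 (r = 0.879), then Dalrd3 (0.872), Lrrc30 (0.852), Zbtb40 (0.844), Ppp1r3c (0.840) and Nfil3 (0.830). None of the 8 other members was among these 6. The nearest genes were Cecr2 (0.935) and Sesn1 (0.935) for Trp53inp1, Smyd1 (0.925) for Ccng1, Prmt7 (0.892) for Aen, Tars2 (0.857) for Phlda3 and Smpd1 (0.849) for Bax. Those for Bbc3 (Glipr2, 0.804), Gadd45a (Fam125b, 0.80) and Mdm2 (Thumpd1, 0.751) were less alike.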

How the data were processed

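RNA was sequenced from 24 skin pools with a stranded total RNA kit, per the labels. The deposited count table holds raw read counts for exon, intron and antisense rows of each gene model, per the file headers. The deposited RPKM table was normalized by the authors with cqn, as its deposited name says. It was used for levels per length and, as log2(RPKM + 0.1), for 1 alternative. Per the submitters' processing notes, TopHat2, SAMtools, HOMER and the build mm10 were used, with no versions or counting settings stated. Of rows sharing a symbol the highest total was kept, which left out 2114 exon rows. Genes were filtered by filterByExpr by group (minimum count 10, minimum total 15) and scaled by TMM. Adjusted p-values come from edgeR 4.0.16 (quasi-likelihood F test). They were adjusted by Benjamini-Hochberg across all genes of each comparison, not across comparisons, and called at 0.05. The models had a mean, cosine and sine of 24 h per group (15 residual degrees of freedom), a shared cosine and sine (19), or classes of hours since food opened with group and time of day (14). Estimates and SE are from least squares on log2 CPM (prior count 2). DESeq2 1.42.0 and limma 3.58.1 were alternatives. Some comparisons by exon reads, among them the rhythm in MD and early against late after food, were tested on simulated data. Not every comparison was tested in this way. All 9 members are named in every comparison, and of the other lists those with the smallest adjusted p. The members and lists were chosen with earlier results of these data known. With 1 pool per group and time, the error is the departure from the fitted model. The p-values therefore reflect variation among pools, which may be technical, together with any misfit of the model. They do not reflect variation between mice within a pool. Gene positions are from GENCODE M21. Results for 1 listed regulator of Cdkn1a are not reported here.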

Additional observations from a re-analysis of the deposited data

Results flagged for a closer look

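The daily course of Cdkn1a differed between EN and MD (adjusted p = 0.00408) and between MD and ED (adjusted p = 0.000864), by the test of the difference itself in edgeR.

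Of 108 sets of 7 to 9 libraries, 9 had a highest or lowest library whose gap to its neighbour, as a share of the range, passed Dixon's 95% value, where chance gives about 1 in 20. The MD library of ZT16 stood out among the libraries of 11 to 16 h for Cdkn1a exon reads (135 CPM, gap 0.659 of the range), Cdkn1a intron reads (51.2 CPM, 0.805), Trp53inp1 exon reads (295 CPM, 0.73) and Trp53inp1 intron reads (166 CPM, 0.621). Cdkn1a introns in the MD library of ZT12 (42.7 CPM) were the highest of the libraries of 3 to 8 h (gap 0.712). Trp53inp1 introns in the EN library of ZT12 (150.0 CPM) were the highest of EN (0.694). Gadd45a exon reads in the ED library of ZT28 (10.2 CPM) were the highest both of ED (0.551) and of the libraries of 3 to 8 h (0.721), and Gadd45a introns in the MD library of ZT12 (0.0859 CPM) the lowest of the libraries of 3 to 8 h (0.585).

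Antisense rows, used in no comparison, held reads for all 9 genes over the 24 libraries, above the 3 counts that a count of 0 allows. Bbc3 had 675 antisense counts, 31.6% of its exon count, and Gadd45a 164, 5.07% of its exon count, where the gene E230016M11Rik lies on the other strand. The totals were 487 for Trp53inp1, 217 for Ccng1, 139 for Mdm2, 112 for Cdkn1a, 47 for Bax, 42 for Phlda3 and 35 for Aen.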

How the results depend on the processing

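Over 22 comparisons and 22 calls of single members, 130 of 148 values of single members kept their side of the threshold under 9 other settings. No direction reversed among the mean level and food differences. Rhythm and departure calls carry no direction, so a reversal could not be seen there. The cause of the changes was not tested. DESeq2 called 2 members rhythmic in ED, 2 with a different rhythm for EN minus ED, 2 for MD minus ED, 1 for 3 to 8 h against 11 to 16 h, 2 for 11 to 16 h against 19 to 24 h, 3 departing from a shared ZT rhythm and 2 from food time. limma on log2 RPKM called 2 members rhythmic in EN, 1 with a different rhythm for EN minus ED, 2 for MD minus ED, 1 for 3 to 8 h against 11 to 16 h and 2 departing from a shared ZT rhythm. Without the second day, 0 members were rhythmic in ED, 2 differed early against late, 1 for 11 to 16 h against 19 to 24 h and 1 had a shared food time rhythm. Without the EN ZT0 and ED ZT24 libraries, 0 were rhythmic in EN and 0 in ED. With each group fitted alone, 2 were rhythmic in EN, 0 in ED, and by introns 1 in EN and 0 in MD. Without the term for time of day, 2 differed early against late by exons and 0 by introns. With no filter, 1 member differed in rhythm for EN minus ED, 1 for 3 to 8 h against 11 to 16 h, 1 for 11 to 16 h against 19 to 24 h, 2 departed from a shared ZT rhythm and 2 from food time. With sampling time as a replicate block, which the labels do not give as a pairing of mice, no member lost its call and 4 members differed in mean level for EN minus MD, with Cdkn1a still different in rhythm for EN minus MD (adjusted p = 0.00437) and MD minus ED (0.00138).

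With 1 library left out in turn, members called early against late ranged from 1 to 5 by exons and 1 to 2 by introns, mean level from 1 to 5 for EN minus MD and 2 to 4 for MD minus ED, shared food time rhythm from 2 to 3, departures from ZT from 1 to 2 and from food time from 0 to 2, and rhythm in EN, in ED and by introns in MD, the different rhythm for EN minus ED and both other food comparisons from 0 to 1. Counts over all genes moved too. DESeq2 called 348 genes rhythmic in EN (166 in edgeR), 494 in MD (148), 394 in ED (113) and 1137 early against late (762), against 64 in EN, 24 in ED and 373 early against late without the second day, and 19 in MD with each group fitted alone.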

Other observations

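Intron reads of genes on the lists of other p53 targets and of regulators of Cdkn1a were also tested. Btg2, an antiproliferative gene, was rhythmic by introns in MD with an amplitude of 0.70 ± 0.15 (log2) and a peak at ZT15.0 ± 0.872 h (adjusted p = 0.0207), near the intron peak of Cdkn1a in the same group. Ephx1, called by exon reads as well, had an intron rhythm with an amplitude of 0.49 ± 0.07 in EN and a peak at ZT7.69 ± 0.51 h (adjusted p = 0.0015), and its introns were lower at 3 to 8 h than at 19 to 24 h after food opened (-0.52 ± 0.08, adjusted p = 0.000389). In the same comparison 8.51% of all genes were called by introns. Ak1, another target, was called higher, and Rrm2b and Perp lower. On the list of regulators, Klf9 had the lowest adjusted p (-0.87 ± 0.10, adjusted p = 1.4e-05), and Nr1d2 and Rora were also called lower. Foxo3, a factor of the fasted state that activates Cdkn1a in other cells, was lower by introns (-0.40 ± 0.08, adjusted p = 0.00261) but was not called by exon reads.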
